A study of Mus musculus with 9 samples.

Results

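Cyclic nucleotide phosphodiesterases were followed across the cell types of the mouse heart as 10 genes taken by name, Pde1a, Pde1c, Pde2a, Pde3a, Pde3b, Pde4b, Pde4d, Pde5a, Pde7b and Pde10a, of 23747 genes in the tables. All 10 were listed. Each gene was tested where its counts allowed, which left 10 in cardiomyocytes and endothelial cells and 9 in fibroblasts and myeloid cells, where Pde2a was too low.

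Phosphodiesterases are the enzymes that break down cAMP and cGMP, the second messengers through which adrenergic, adenosine, nitric oxide and natriuretic peptide signals act on the heart. In cardiomyocytes cAMP drives protein kinase A and with it the force and rate of contraction, and phosphodiesterases held near calcium channels and the sarcoplasmic reticulum limit where that signal reaches. The families differ in substrate and control. Pde1 enzymes are switched on by calcium and calmodulin, Pde2a is stimulated by cGMP, Pde3 enzymes split cAMP and are slowed by cGMP, Pde4 and Pde7 enzymes split cAMP only, Pde5a splits cGMP and is the target of sildenafil, and Pde10a splits both.

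The data were single-nucleus RNA sequencing (sNuc-seq) of hearts from C57BL/6 mice, 1 library per mouse and 3 mice per group, taken from tissue below the ligation. The mice were 8 weeks old when supplied and were acclimatized before the gavage. Mice of the sham group were gavaged with vehicle for 7 days and had the needle passed with no ligation. I/R mice had the same 7 days of vehicle, then ligation of the left anterior descending artery (LAD) for 30 min and 24 h of reperfusion. SBP mice had the same 30 min of ischemia and 24 h of reperfusion after 7 days of gavage with MUSKARDIA solution, which the study calls SBP. No group received SBP without ischemia.

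The 9 libraries held 49171 nuclei and 135423853 recovered unique molecular identifiers (UMIs), between 10329520 and 18205985 UMIs per library, with a median of 1540 to 2031 UMIs per nucleus. Any pair of libraries shared 4 to 14 cell barcodes, at most 0.251% of the smaller library. Clustering without the phosphodiesterases or the other cyclic nucleotide genes gave 13 clusters, each named from markers. A cluster of 384 nuclei was named by no main type but had 4 of 6 dendritic cell markers, and it was counted as myeloid. Cardiomyocytes (10533 nuclei) had all 6 of their markers (Ttn, Ryr2, Myh6, Tnnt2, Pln, Mybpc3). The smooth muscle and pericyte cluster (184 nuclei) also had all 6 fibroblast markers, so its values are described only. Endothelial (13462 nuclei), fibroblast (14132 nuclei) and myeloid (9566 nuclei) sums, with the cardiomyocytes, were the 4 types tested. T cells also had at least 20 nuclei in every mouse (30 to 205) and are described only. Schwann cells (107 nuclei) had under 20 in every mouse and are left out of the orders of types below.

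The members lie on 8 chromosomes of GRCm38 and differ widely in length, which matters because priming inside long introns can add UMIs in nuclei, although the sources used here do not say whether intronic reads were counted. Pde4d spanned 1503.5 kb (chr13:108449948-109953461, plus strand) and Pde2a 91.1 kb (chr7:101421691-101512827, plus strand). Levels are therefore compared between cell types for a given gene and never between genes. The annotation puts Pde2a over the coding gene Gm45837 on the same strand and Pde10a (chr17:8525372-8986648, plus strand) over the coding gene Gm17087 on the other strand, and reads in the shared stretches could not be separated here.

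RefSeq promoter windows of 250 bases before the transcript start (GRCm38.p6) were found for 8 of the 10 members. Pde1c had 3 windows and Pde7b 1, and these genes are shown because they gave the calls in fibroblasts. The Pde1c window printed is the only one of its 3 with a motif searched. Capitals mark CCAAT on either strand.
Pde1c, chr6:56362811-56363060, minus strand: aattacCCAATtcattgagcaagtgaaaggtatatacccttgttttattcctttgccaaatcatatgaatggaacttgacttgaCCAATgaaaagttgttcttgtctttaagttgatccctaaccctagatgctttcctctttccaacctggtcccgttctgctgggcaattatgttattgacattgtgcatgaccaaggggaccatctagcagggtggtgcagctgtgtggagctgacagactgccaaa
Pde7b, chr10:20548329-20548578, minus strand: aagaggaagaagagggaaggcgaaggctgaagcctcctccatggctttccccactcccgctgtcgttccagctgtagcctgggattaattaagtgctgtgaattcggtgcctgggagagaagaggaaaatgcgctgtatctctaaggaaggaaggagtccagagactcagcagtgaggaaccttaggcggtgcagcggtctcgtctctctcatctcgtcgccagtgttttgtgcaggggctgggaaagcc
The printed Pde1c window held 2 such boxes, and 33.8% of 32851 promoter windows of the same length held at least 1. The Pde7b window and the other 2 Pde1c windows held none of the letters searched on either strand, which beside the CCAAT box were the TATA box TATAAA, the GC box GGGCGG, the E box CACGTG, the cAMP response element TGACGTCA through which CREB acts and its shorter core TGACG, which the full element contains. The full element was in 1.55% of all windows and in none of the 21 windows of members, and the core in 17.8% of all windows and in 1 window each of Pde1a and Pde4b.

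Pde4d, Pde4b and Pde1c had their highest means in cardiomyocytes. Pde4d, the cAMP enzyme tied to the ryanodine receptor and to beta-adrenergic receptors, stood at 9238 ± 2968 CPM in cardiomyocytes (CPM scales a gene's UMIs by the sum of all UMIs of the type in the mouse, mean ± SD, n = 9 mice here and below, except 7 mice for B cells and 5 for the smooth muscle and pericyte cluster, the mice with at least 20 such nuclei), and the next type, T cells, at 1453 ± 645. The lowest cardiomyocyte value, 5786, lay above the highest T cell value, 3014. Cardiomyocytes held 86.5% of all Pde4d UMIs and 44.3% of the UMIs of all genes.

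Pde4b, the cAMP enzyme near the L-type calcium channel, was at 1721 ± 530 CPM in cardiomyocytes and 884 ± 140 in B cells, ranges that overlapped, and at 232 to 412 CPM in the other 5 types. The cardiomyocyte levels of Pde4b and Pde4d scaled down by the cardiomyocyte markers found in endothelial nuclei of sham mice were 101% of the measured levels there for both genes. In sham fibroblasts they were 80.5% and 81.7% and in sham myeloid nuclei 77.6% and 79.7%. In I/R mice they were 61.3% and 87.6% in endothelial, 36.4% and 56.1% in fibroblast and 35.4% and 50.2% in myeloid nuclei. In SBP mice they were 56.5% and 86.2%, 34.8% and 64.8%, and 33.3% and 45.5% in the same types. The part of cardiomyocyte transcripts in these levels was not tested. Pde1c was at 544 ± 189 CPM in cardiomyocytes and at 49.3 to 121 CPM in the other 6 types. The lowest cardiomyocyte value of Pde1c, 297 CPM, was above the highest in the smooth muscle and pericyte cluster, 228 CPM, and neighbours below that did not differ beyond their spread. Nuclei were thinned to 1000 UMIs and shallower ones left out, which kept 10529 of 10533 cardiomyocyte, 9360 of 9566 myeloid and 12611 of 14132 fibroblast nuclei, or 4241 of 4242, 1861 of 1874 and 3880 of 4462 in sham, 3258 of 3259, 4608 of 4741 and 4205 of 4603 in I/R and 3030 of 3032, 2891 of 2951 and 4526 of 5067 in SBP mice. Pde1c was then seen in 35.2% of cardiomyocyte nuclei (70.0% unthinned, median 4434 UMIs) and in 4.28% of myeloid (7.33% unthinned, median 1724 UMIs) and 5.96% of fibroblast nuclei (10.4% unthinned, median 1785 UMIs). With no type sure to lack the gene, the shares outside cardiomyocytes are not read as expression.

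Pde1a and Pde10a had their highest means in fibroblasts. Pde1a was at 994 ± 214 CPM in fibroblasts, 612 ± 141 in the smooth muscle and pericyte cluster, which overlapped, and 101 ± 24.7 in endothelial cells, which did not reach either. Cardiomyocytes were last with 15.9 ± 3.24 CPM. Within fibroblasts, the cluster led by Tnc, Postn and Cthrc1 had a mean of 1377 CPM of Pde1a in the 6 I/R and SBP mice, and the larger cluster 921 CPM over all 9. Pde10a was at 229.8 ± 111 CPM in fibroblasts, 175 ± 70.1 in the smooth muscle and pericyte cluster and 95.3 ± 18.6 in endothelial cells, with the last of these apart from the 21.2 ± 20.4 of T cells.

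Among the types ordered here Pde3b, known for insulin action in fat cells, was highest in the immune nuclei. It was at 355 ± 113 CPM in T cells, 248 ± 192 in B cells and 231 ± 73.7 in myeloid cells. These 3 overlapped, and fibroblasts followed at 59.3 ± 15.8, apart from the myeloid range. Lymphatic endothelial nuclei, a part of the endothelial type, had 225 ± 52.2 CPM of Pde3b (145 to 283), which overlapped the immune nuclei. Pde5a was highest in the smooth muscle and pericyte cluster (99.7 ± 29.4 CPM over 5 mice) and in fibroblasts (57.1 ± 12.4), whose ranges overlapped, and last in cardiomyocytes (2.25 ± 0.612). Pde2a was low everywhere, 20.6 ± 7.30 CPM in endothelial cells and 0.999 ± 0.454 in fibroblasts. Pde3a was spread over the smooth muscle and pericyte cluster (1038 ± 99.8), cardiomyocytes (985 ± 263), endothelial cells (792 ± 95.6) and fibroblasts (494 ± 122), each overlapping the next, and was lowest in myeloid cells (139 ± 41.0). Among the types ordered here Pde7b belonged to no single one, with 626 ± 138 CPM in endothelial and 608 ± 90.7 in myeloid cells. Each type overlapped the next in an order down to 195 ± 117 in T cells. That order pools the groups. In sham mice the mean was 706.9 CPM in cardiomyocytes, 636 in endothelial and 633 in myeloid cells, and in I/R mice 386, 552 and 664. Schwann cells, outside the order, had 946 CPM of Pde7b from 185 UMIs pooled over 107 nuclei.

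**Figure D1:**
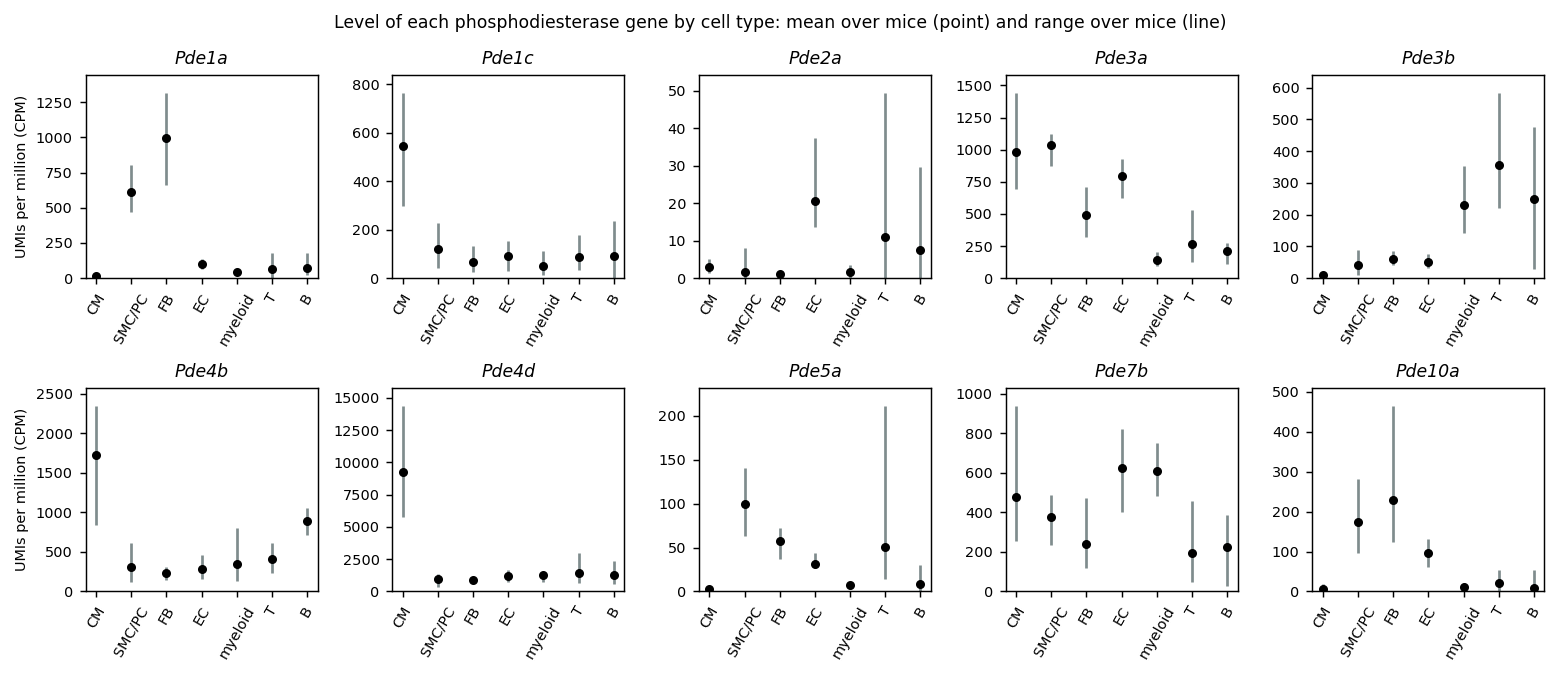
Mean (point) and range over mice (line) of each gene's level in CPM, on a linear axis from 0, in cardiomyocytes (CM), the smooth muscle and pericyte cluster (SMC/PC), fibroblasts (FB), endothelial (EC), myeloid, T and B cells. Pde4d, Pde4b and Pde1c peak in cardiomyocytes (means of 9238, 1721 and 544 CPM), Pde1a and Pde10a in fibroblasts, and Pde3b in T cells.

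The endothelium was not uniform for these genes. Endothelial nuclei split into capillary (7723 nuclei), endocardial (3870), lymphatic (860) and arterial (710.0) kinds by their markers, and 299 nuclei led by the cardiomyocyte transcripts Pgam2, Nppa and Actc1 were left unnamed. Pde3a was at 1720 ± 301 CPM in endocardial and 232 ± 37.9 in capillary nuclei of sham mice (n = 3). The lowest endocardial sham value was 1425 CPM and the highest capillary one 265 CPM. In I/R mice the same kinds had 1982 ± 462 and 202 ± 34.1 CPM, and in SBP mice 1715 ± 284 and 184 ± 68.2.

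Pde7b was shared by endocardial and lymphatic nuclei, with 1164 ± 87.4 and 1083 ± 118 CPM in sham mice against 244 ± 80.2 in capillary nuclei. Pde10a was highest in lymphatic nuclei, with 202 ± 31.6 CPM in sham mice, 194 ± 35.0 in I/R mice and 226 ± 46.5 in SBP mice. Endocardial Pde10a stood at 74.3 ± 9.65 CPM in sham mice, 34.0 ± 19.9 in I/R mice and 37.9 ± 5.22 in SBP mice. The lowest sham mouse (65.6 CPM) was above the highest I/R mouse (49.4 CPM), but the share of all genes so separated in endocardial nuclei was not computed. Over all endothelial nuclei Pde10a overlapped between sham and I/R mice, where 20.6% of genes did not. Pde2a sat in capillary nuclei, at 24.5 ± 5.75 CPM in sham mice, 39.0 ± 15.4 in I/R mice and 44.8 ± 8.22 in SBP mice, against 5.17 to 9.04 CPM in endocardial nuclei of sham mice. The kinds were told apart by other genes, and these levels are given as a description with no test.

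**Figure D2:**
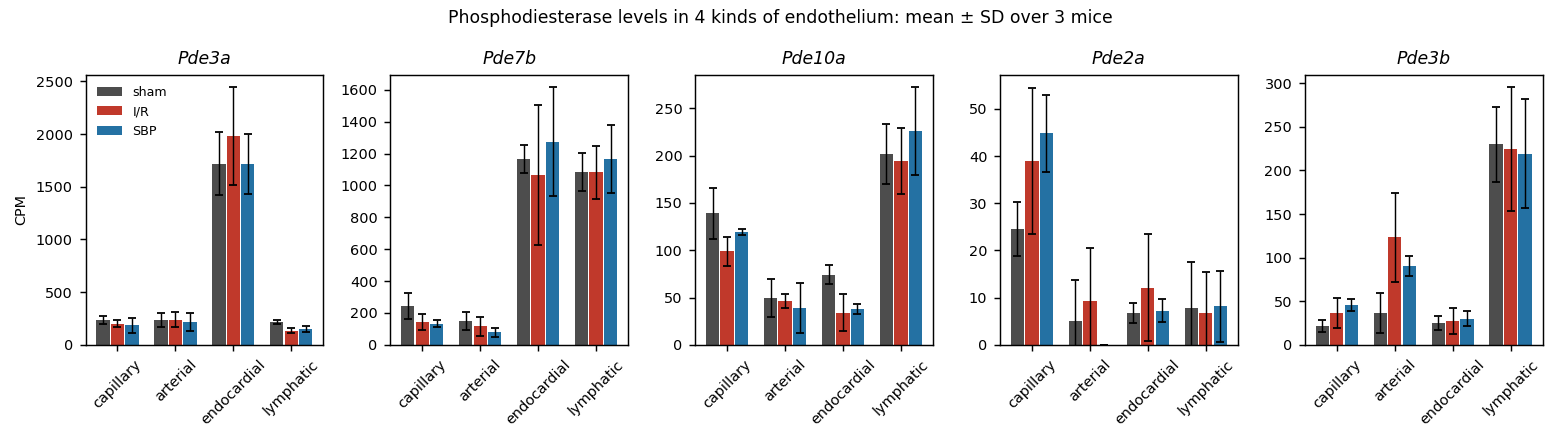
Mean ± SD over 3 mice of the level in CPM of 5 genes in 4 kinds of endothelial nuclei, with sham in gray, I/R in red and SBP in blue. Pde3a is high in endocardial nuclei alone among the 4 kinds (1720 CPM in sham), Pde7b in endocardial and lymphatic nuclei, Pde10a and Pde3b in lymphatic nuclei (202 and 230 CPM in sham) and Pde2a in capillary nuclei.

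The first comparison, I/R against sham, asks what ischemia and reperfusion did to these genes within each cell type. Fibroblast Pde1c and Pde7b fell, myeloid Pde1c fell, and no member passed the test in cardiomyocytes or endothelial cells. The test was limma on log2(CPM + 1) of the sums per mouse, scaled by trimmed means of M-values (TMM), with Benjamini-Hochberg adjustment over all genes tested in the type, and a call needed an adjusted p of at most 0.05 and a change of over 0.25. Cardiomyocytes had 0 of 10 members called and 0.822% of all genes, endothelial cells 0 of 10 and 3.16%, fibroblasts 2 of 9 and 11.3%, and myeloid cells 1 of 9 and 17.7%. Groups that did not overlap were seen for 2 of 10 members and 16.3% of all genes in cardiomyocytes, 1 of 10 and 20.6% in endothelial cells, 5 of 9 and 26.9% in fibroblasts, and 4 of 9 and 35.2% in myeloid cells. An exact permutation test of 3 mice against 3 cannot go below p = 0.1, so single-gene calls rest on limma's pooled spread.

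In fibroblasts, Pde7b was at 309 TMM-scaled CPM in sham 1, 479 in sham 2 and 272 in sham 3. The I/R mice had 229.7, 169 and 118. Every I/R mouse was below every sham mouse, and the log2 fold change was -1.04 ± 0.25 (SE), adjusted p = 0.0213 by limma. Pde7b splits cAMP at low concentrations. In the largest fibroblast cluster alone, where the Tnc cluster (2 to 4 nuclei in each sham mouse, 136 to 457 in each I/R mouse) was left out, the value was -0.71 ± 0.35 and the call was lost (adjusted p = 0.295 by limma). It was also lost without sham replicate 2 (-0.80) and without I/R replicate 2 (-1.06), with adjusted p of 0.0607 and 0.0674 by limma, in a fit of only the sham and I/R mice (0.0529) and with the mean over nuclei in place of sums (0.0746).

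Fibroblast Pde1c was at 99.7, 135 and 114 TMM-scaled CPM in the 3 sham mice and at 67.4, 48.3 and 26.2 in the 3 I/R mice. The groups did not overlap, and the log2 fold change was -1.37 ± 0.31, adjusted p = 0.0172 by limma. Without sham replicate 2 or 3 the adjusted p was 0.0582 or 0.0605, and in the largest cluster alone 0.0934, with changes of -1.26, -1.39 and -1.19.

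Myeloid Pde1c was at 112, 78.0 and 82.9 TMM-scaled CPM in sham and at 41.3, 40.2 and 13.0 in I/R mice. The log2 fold change was -1.65 ± 0.39, adjusted p = 0.0148 by limma. Myeloid nuclei came from different clusters in the 2 groups. In sham mice 348, 609 and 749 nuclei were in the cluster led by Cd163 and Timd4, and 17, 52 and 20 in the cluster led by Gpnmb and Arg1. The I/R mice had 351, 390 and 505 in the first and 1831, 994 and 504 in the second. Within the Cd163 cluster, an alternative chosen after seeing the data, the change was -1.72 ± 0.48 with an adjusted p of 0.0984 by limma, and in the Gpnmb cluster, without sham 1, it was -0.26 with an adjusted p of 0.725. Leaving out sham replicate 1 from the myeloid sums gave -1.49 and an adjusted p of 0.0617 by limma.

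Cardiomyocyte transcripts moved with Pde1c in the other 3 types tested. The 6 cardiomyocyte markers, all with UMIs in every type, summed to 4977 CPM (4666 to 5482) in sham fibroblasts and 1977 CPM (1478 to 2233) in I/R fibroblasts. In myeloid nuclei they summed to 6333 CPM (5747 to 6983) in sham and 2324 CPM (1753 to 2686) in I/R, and in endothelial nuclei to 8249 CPM (7120 to 9024) and 3959 CPM (2832 to 5065). If the cardiomyocyte level of Pde1c was scaled down by the marker sums of the same mouse, it came to 85.0 ± 13.1 CPM in myeloid nuclei of sham and 30.3 ± 5.69 of I/R mice, beside measured levels of 91.1 ± 18.5 and 31.5 ± 16.1. In fibroblasts the scaled levels were 66.4 ± 3.76 and 25.8 ± 5.26 and the measured ones 116 ± 17.9 and 47.3 ± 20.6. For Pde7b in the same fibroblasts, the scaled levels were 73.8 ± 31.9 and 19.8 ± 7.64 CPM and the measured ones 353 ± 110.1 and 172 ± 55.8. The part of cardiomyocyte transcripts in the falls of Pde1c and of Pde7b was not tested.

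**Figure D3:**
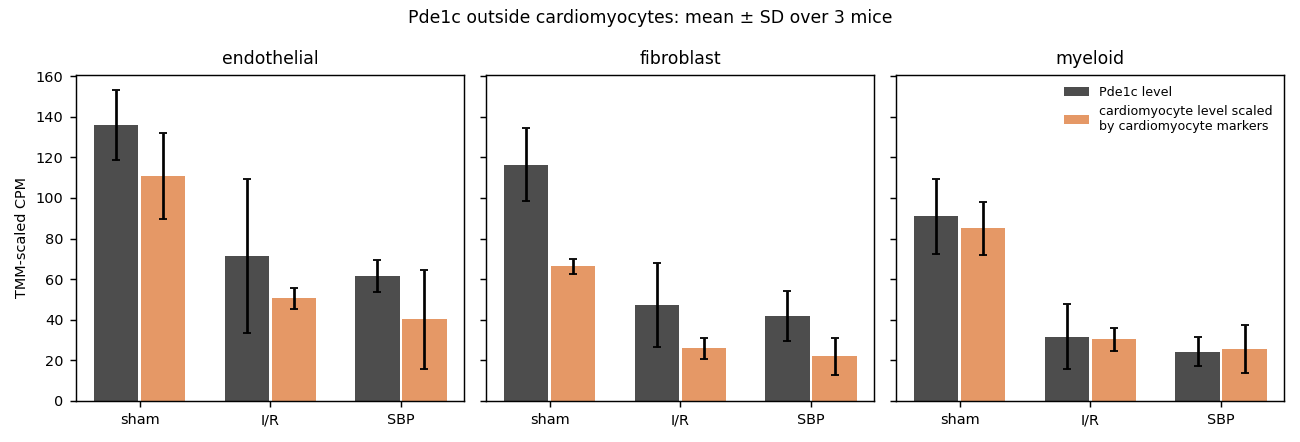
Measured Pde1c level (gray) and the cardiomyocyte Pde1c level scaled by the sum of 6 cardiomyocyte markers in the same mouse (orange), both in TMM-scaled CPM as mean ± SD over 3 mice, in endothelial, fibroblast and myeloid nuclei. In myeloid nuclei the 2 bars differ by less than the SD in every group, and in fibroblasts the measured level is the higher one (116 against 66.4 CPM in sham).

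Endothelial Pde1c had the same kind of values, 152, 138 and 118 TMM-scaled CPM in sham and 107, 76.4 and 31.1 in I/R mice, and did not pass (-1.08 ± 0.36, adjusted p = 0.148 by limma). Its scaled levels were 111 and 50.5 CPM, beside measured means of 136 and 71.4. The other 9 endothelial members lay between -0.55 (Pde4b) and 0.49 (Pde3b) on the log2 scale. Without I/R replicate 1, Pde1c passed (-1.47, adjusted p = 0.0285 by limma), and without I/R replicate 3, Pde3b did (0.84, adjusted p = 0.0459 by limma). Of the 12225 genes tested there, 2142 had an unadjusted p under 0.05, and so did 3 of the 10 members.

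In cardiomyocytes Pde10a, Pde7b and Pde3a were the members with an unadjusted p under 0.05 by limma, and Pde4b (-0.62 ± 0.32) lay further from 0 than Pde3a. Pde3a, the enzyme blocked by milrinone, was at 709.9, 720.4 and 709.3 TMM-scaled CPM in the sham mice and at 976, 1360 and 849 in the I/R mice. No I/R mouse reached down to a sham mouse, but the log2 fold change of 0.54 ± 0.20 did not pass (adjusted p = 0.254 by limma). Pde7b was at 685, 872 and 525 in sham and 617, 239 and 301 in I/R mice (-0.94 ± 0.31, adjusted p = 0.207 by limma), so that I/R 1 lay within the sham range. Without I/R replicate 1, Pde4b, Pde7b and Pde10a passed, with -1.02, -1.34 and -1.72 and adjusted p of 0.0328, 0.00806 and 0.0379 by limma. The share of all genes called in that fit is not given here, so these calls are not read as a result about the members. Pde10a was near the lower limit of counting in this type, with 18.8, 8.32 and 7.47 CPM in sham and 6.77, 3.81 and 1.59 in I/R mice (-1.34 ± 0.43, adjusted p = 0.201 by limma). Cardiomyocyte Pde4d was at 7275, 7038 and 10330.0 in sham and 8195, 5460 and 12283 in I/R mice, a difference of 0.02 ± 0.35. In cardiomyocytes 3 of 10 members and 1829 of 12900 genes had an unadjusted p under 0.05 by limma.

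The other fibroblast members did not pass after adjustment. An unadjusted p under 0.05 by limma was reached by 7 of 9 members and 3333 of 13077 genes in fibroblasts, and by 4 of 9 members and 3512 of 10899 genes in myeloid cells. Pde1a was at 744, 668 and 917 TMM-scaled CPM in sham and 1118, 966 and 1183 in I/R mice, and the groups did not overlap (0.50 ± 0.17, adjusted p = 0.0849 by limma). Pde3a (0.55 ± 0.17, adjusted p = 0.0636 by limma) and Pde3b (0.56 ± 0.19, adjusted p = 0.0837 by limma) also had every I/R mouse above every sham mouse. Pde3a passed in the largest fibroblast cluster alone (0.79 ± 0.19) and without sham replicate 2 (0.67), each with an adjusted p of 0.0409 by limma. With all mice the groups overlapped for Pde10a (-1.04 ± 0.37, adjusted p = 0.110 by limma) and Pde5a (0.44 ± 0.18, adjusted p = 0.158 by limma). For Pde10a, sham 2 (176 TMM-scaled CPM) lay within the I/R range (120 to 225). Without sham replicate 2 Pde10a passed as well (-1.44, adjusted p = 0.0223 by limma), and without I/R replicate 3 Pde3b (0.75) and Pde5a (0.61) did. The share of all genes called in these alternatives is not given here, so these calls are not read as a result about the members.

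**Figure D4:**
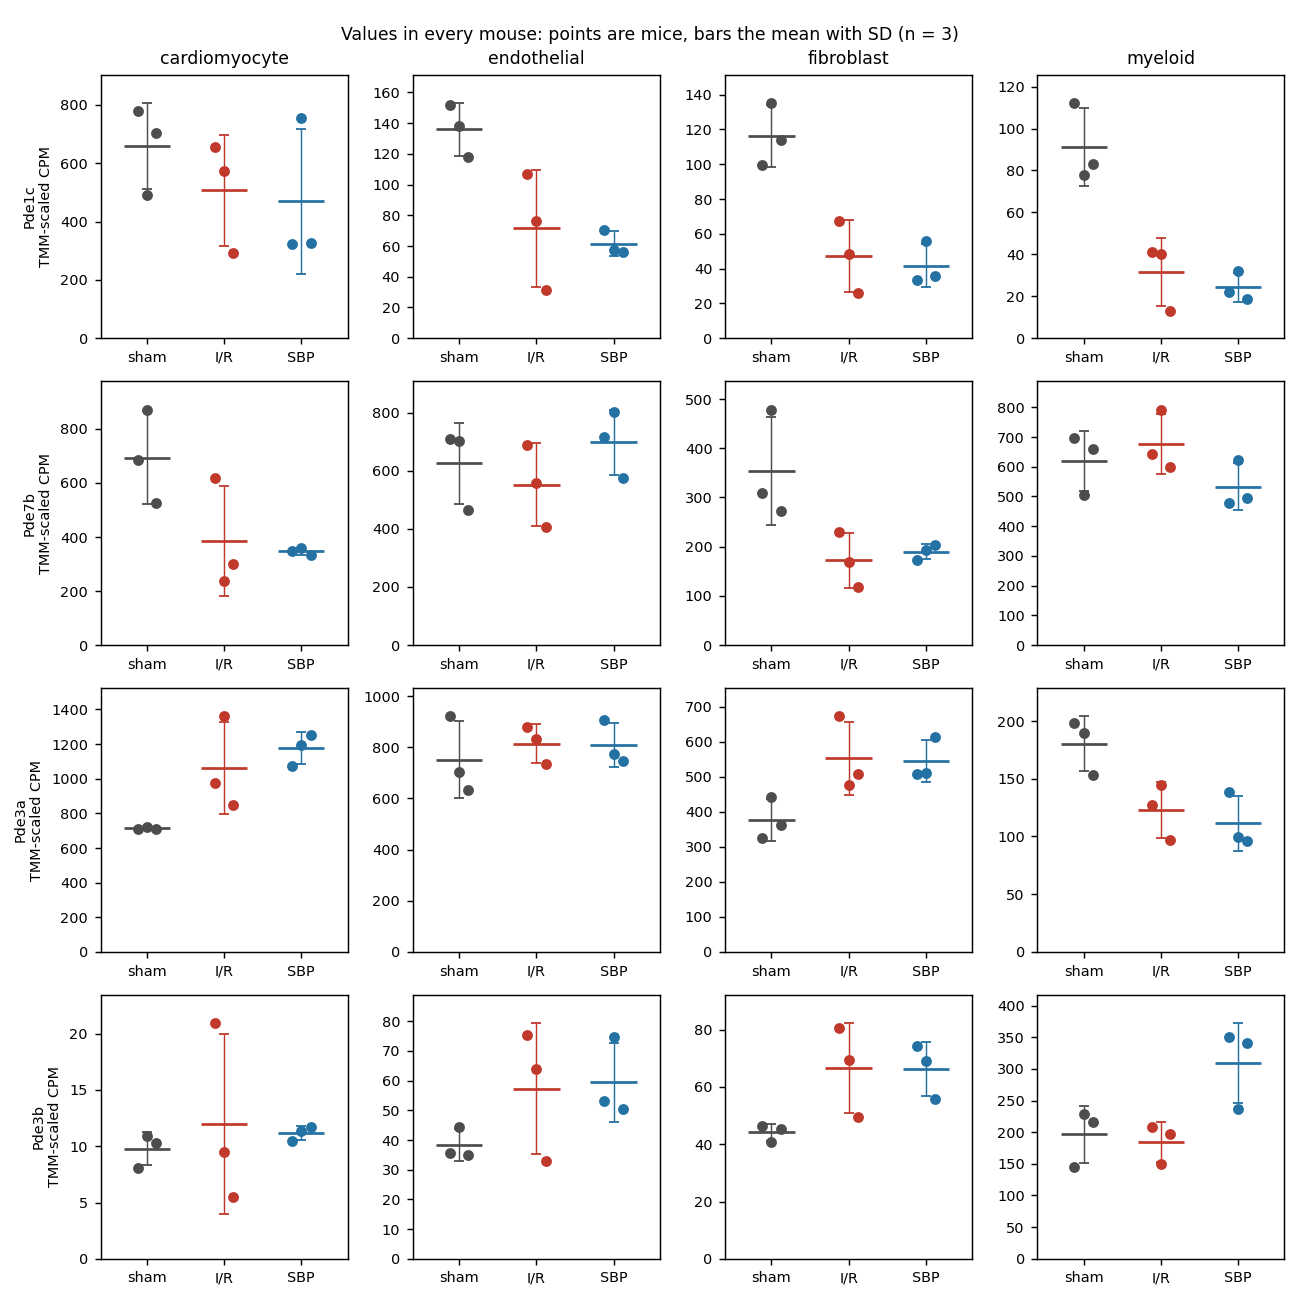
Level of Pde1c, Pde7b, Pde3a and Pde3b (rows) in TMM-scaled CPM in every mouse (points), with the group mean and SD (n = 3), for 4 cell types (columns) on linear axes from 0. Pde1c is lower in every I/R and SBP mouse than in every sham mouse in endothelial, fibroblast and myeloid nuclei but overlaps in cardiomyocytes, and Pde3a is higher in cardiomyocytes and fibroblasts and lower in myeloid nuclei of I/R mice. Of all genes, 16.3%, 20.6%, 26.9% and 35.2% had no overlap between I/R and sham in cardiomyocytes, endothelial cells, fibroblasts and myeloid cells. Between SBP and sham the shares were 23.2%, 23.9%, 27.0% and 33.9%.

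The next comparison asks whether a member's response to I/R differed between types, each type being set against the mean of the other 3 within the same mice. Pde3a in myeloid nuclei passed, with a difference of -0.97 ± 0.23 in log2 fold change (adjusted p = 0.0353 by limma), 1 of 9 members where 5.94% of 10097 genes were called. Myeloid Pde3a was at 198, 189 and 154 TMM-scaled CPM in sham and 127, 144 and 97.1 in I/R mice. Cardiomyocyte markers moved with it. The cardiomyocyte level of Pde3a scaled by them came to 93.3 ± 9.68 CPM in myeloid nuclei of sham and 66.3 ± 16.0 of I/R mice, beside measured levels of 180 ± 23.6 and 122.9 ± 23.9, and the part of the one in the other was not tested. Without I/R replicate 2 the myeloid change itself passed (-0.68, adjusted p = 0.0479 by limma), which with all mice it did not (-0.56 ± 0.20, adjusted p = 0.0656). The difference lost its call in 11 of 20 alternatives and kept its sign in all 20, and leaving out any 1 sham or I/R mouse gave adjusted p of 0.0730 to 0.0993 by limma.

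Pde5a in myeloid nuclei stood next (0.97 ± 0.27, adjusted p = 0.0614 by limma), at 3.30, 4.28 and 5.77 TMM-scaled CPM in sham and 11.0, 8.67 and 8.67 in I/R mice, and passed without SBP replicate 1 (adjusted p = 0.0439). The sham values rest on only 2, 5 and 8 UMIs. Fibroblast markers in myeloid nuclei summed to 345 CPM in sham and 809 CPM in I/R mice, and their part was not tested. In cardiomyocytes, endothelial cells and fibroblasts no member's difference from the other types passed, with smallest adjusted p of 0.0994, 0.294 and 0.105 by limma. An unadjusted p under 0.05 was reached there by 4, 1 and 2 of 9 members and by 1802, 1364 and 2116 of 10097 genes, and limma called 1.53%, 0.188% and 3.04% of genes.

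The comparison of SBP with I/R asks what the treatment added. No member passed in any of the 4 types, and limma called 0.0% of genes in each. At an unadjusted p under 0.05 limma had 278 of 12900 cardiomyocyte genes, 625 of 12225 endothelial, 462 of 13077 fibroblast and 424 of 10899 myeloid genes. No member's groups stood apart in cardiomyocytes (5.64% of all genes did), endothelial cells (9.5%) or fibroblasts (8.34%), and 2 of 9 did in myeloid cells (9.07%), Pde3b and Pde5a. The only member under that p was Pde3b in myeloid cells, which was at 208, 149 and 198 TMM-scaled CPM in I/R mice and at 350.1, 236 and 340.4 in SBP mice, and the sham mice had 145, 229 and 216. The SBP mice lay above all I/R mice, and the log2 difference of 0.73 ± 0.22 had an adjusted p of 0.999 by limma, from 0.00484 unadjusted.

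Within myeloid nuclei the Pde3b values depended on the cluster. In the one led by Cd163, Pde3b was at 208 ± 54.3 CPM in sham mice, 351 ± 121 in I/R mice and 510.3 ± 32.8 in SBP mice, and no SBP mouse (lowest 477) was within the sham range (highest 258). The difference of SBP from I/R mice was 0.58 ± 0.22 there (adjusted p = 0.847 by limma). Against sham the SBP value was 1.35 ± 0.22 (adjusted p = 0.00945 by limma) in the Cd163 cluster, where the I/R value was 0.77 ± 0.22 (adjusted p = 0.0951). The Cd163 cluster was chosen after seeing the data, and the shares of all genes called or without overlap in it are not given here. Over all myeloid nuclei these shares were 12.3% and 33.9% for SBP against sham. Pde3b over all myeloid nuclei had 0.65 ± 0.22 for SBP against sham and did not pass (adjusted p = 0.0651 by limma, or 0.0424 without I/R replicate 2 and 0.0393 in a fit of only the sham and SBP mice). In the Gpnmb cluster alone, without sham 1, its sign turned (-0.36).

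For the other members SBP and I/R differed by -0.40 to 0.41 on the log2 scale, with SE of 0.16 to 0.63. Fibroblast Pde7b was at 173, 193 and 203 TMM-scaled CPM in SBP mice beside 118 to 229.7 in I/R mice, a difference of 0.19 ± 0.25. Fibroblast Pde1c was at 33.5, 56.1 and 35.7 beside 26.2 to 67.4. Cardiomyocyte Pde4d was at 6897, 14569 and 11229 in SBP mice, a difference of 0.35 ± 0.35 from I/R with wide overlap. The study lists Pde4d among cardiomyocyte genes raised by SBP independently of the disease, from its own test (DESeq2) and its own cell typing. That call was not reached here.

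**Figure D5:**
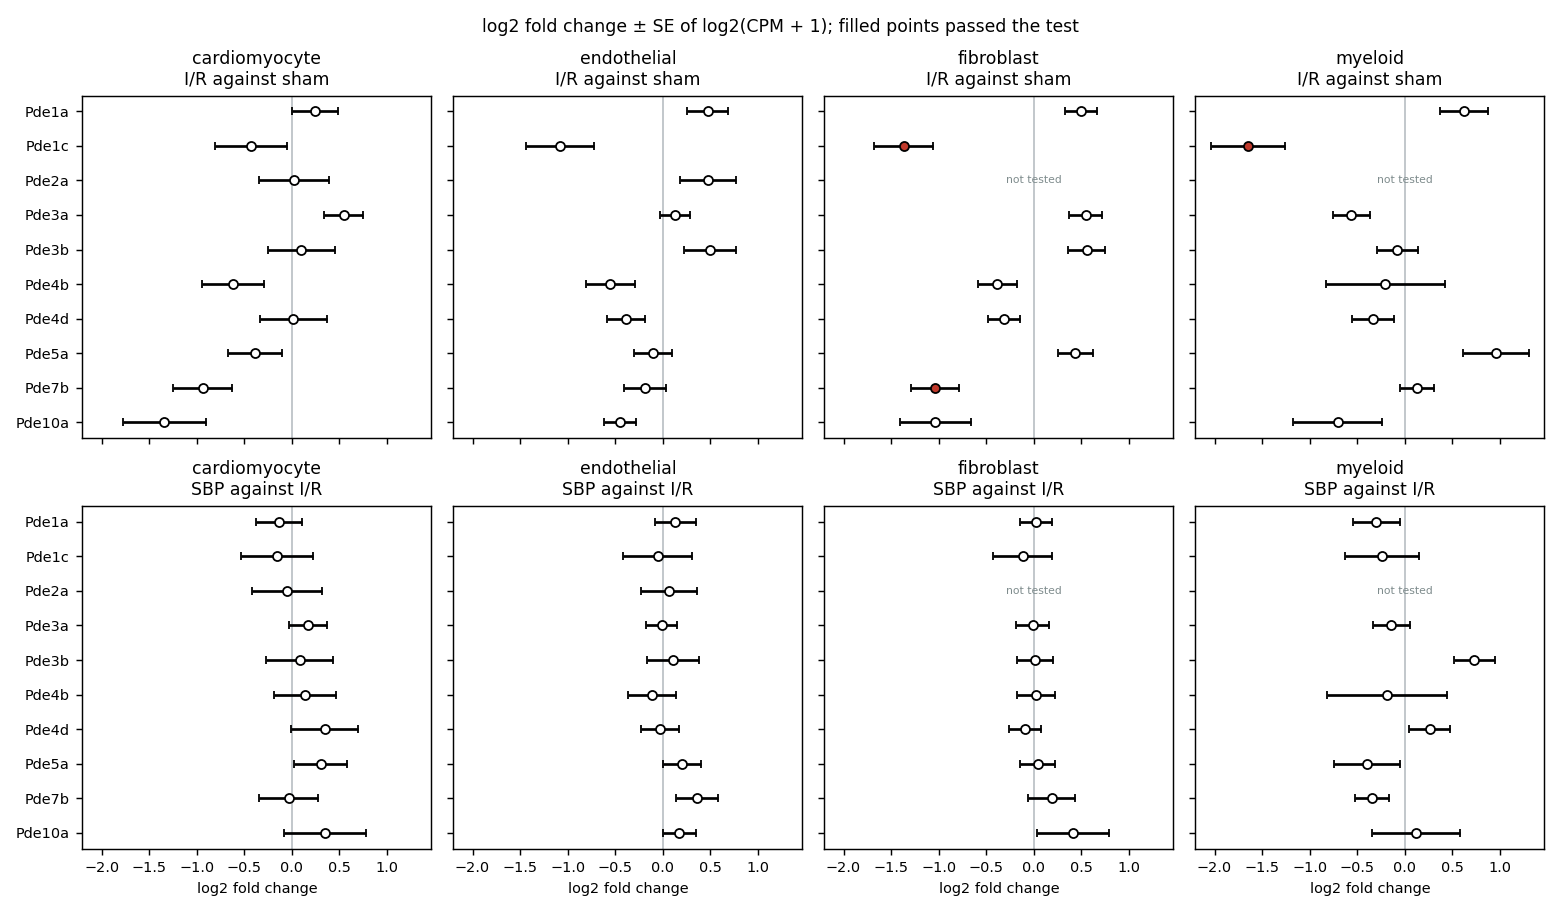
log2 fold change ± SE of each gene in 4 cell types for I/R against sham (top) and SBP against I/R (bottom), from limma on log2(CPM + 1) with 3 mice per group. Filled points passed the test, fibroblast Pde1c and Pde7b and myeloid Pde1c, and no point of the bottom row did.

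SBP against sham shares its control mice with I/R against sham, so the values are given side by side. Without overlap between groups were 4 of 10 members and 23.2% of all genes in cardiomyocytes, 5 of 10 and 23.9% in endothelial cells, 8 of 9 and 27.0% in fibroblasts, and 3 of 9 and 33.9% in myeloid cells. Fibroblast Pde1c fell in SBP mice by 1.48 ± 0.31 on the log2 scale (adjusted p = 0.0174 by limma) beside -1.37 in I/R mice, and in the SBP contrast limma called 6.0% of all fibroblast genes beside 1 of 9 members. That call was lost without sham replicate 2 or 3 or SBP replicate 1 or 3, with changes of -1.37, -1.50, -1.35 and -1.39, with the mean over nuclei (-1.38) and in the largest cluster alone (-1.32, adjusted p = 0.113 by limma). Fibroblast Pde7b, at -1.04 in I/R mice, was at -0.85 ± 0.25 in SBP mice and did not pass (adjusted p = 0.0752 by limma), though it did in 4 alternatives, with adjusted p of 0.0180 to 0.0447. Endothelial Pde1c was at 70.7, 57.5 and 56.3 TMM-scaled CPM in SBP mice, a change of -1.13 ± 0.36 that did not pass (adjusted p = 0.161 by limma) and did in 3 alternatives, with adjusted p of 0.00209 to 0.00830. In myeloid cells, where 12.3% of genes were called, Pde1c fell by 1.88 ± 0.39 (adjusted p = 0.0106) and Pde3a by 0.70 ± 0.20 (adjusted p = 0.0336 by limma), beside log2 fold changes of -1.65 and -0.56 in I/R mice. The Pde1c call was lost without SBP replicate 3 (-1.72), and the Pde3a call without sham replicate 1 or 2 or SBP replicate 2 or 3 (-0.63, -0.66, -0.63 and -0.61). Both were lost in the Gpnmb cluster alone, without sham 1, where Pde1c was at -0.64 and Pde3a at -0.35 (adjusted p = 0.380 and 0.365 by limma), and in the Cd163 cluster alone (-1.88 and -0.86, adjusted p = 0.0852 for each by limma). The Pde3a call was also lost with no filter on low genes (-0.70), with the mean over nuclei (-0.59) and with cell types from marker scores (-0.47). In the myeloid nuclei of SBP mice the cardiomyocyte markers summed to 2008 CPM (1844 to 2306), beside 6333 in sham, and the scaled levels were 25.6 ± 11.8 CPM for Pde1c and 65.2 ± 4.35 for Pde3a, beside measured ones of 24.3 ± 7.03 and 111 ± 23.7. In fibroblasts of SBP mice the markers summed to 1758 CPM (1531 to 2206). No member passed in cardiomyocytes or endothelial cells, where limma called 0.14% and 2.1% of genes and where 3 and 4 of 10 members, and 1716 and 1881 genes, had an unadjusted p under 0.05. In fibroblasts 7 of 9 members and 2565 genes were under that p, and in myeloid cells 3 of 9 members and 3072 genes. Cardiomyocyte Pde7b was at 348, 359 and 333 in SBP mice, all below the 3 sham mice (-0.97 ± 0.31, adjusted p = 0.216 by limma), and Pde3a at 1073, 1197 and 1255, all above them (0.72 ± 0.20, adjusted p = 0.165 by limma).

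The rest of the cyclic nucleotide pathway was followed as 7 lists of 120 genes, of which 117 were listed in the tables. For I/R against sham, none of the 82 tested in cardiomyocytes was called (0.822% of all genes were) and 1 of 73 in endothelial cells (3.16%). In fibroblasts 4 of 80 were called higher and 10 lower (11.3% of all genes were called), and in myeloid cells 5 of 62 were called higher and 15 lower (17.7%). Their median change was -0.08 in fibroblasts and -0.22 in myeloid cells, and that of all genes -0.0010 and 0.07. In the same fibroblast and myeloid nuclei the cardiomyocyte markers were lower in I/R mice, as given above, and their part in these calls was not tested. The clusters behind the sums also differed between the groups. The myeloid cluster led by Gpnmb and Arg1 had 17, 52 and 20 nuclei in sham and 1831, 994 and 504 in I/R mice. The fibroblast Tnc cluster had 2 to 4 nuclei in each sham mouse and 136 to 457 in each I/R mouse. The part of these clusters in the calls was not tested.

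Among other phosphodiesterases, Pde1b, a calmodulin-dependent enzyme like Pde1a and Pde1c, rose in myeloid cells from 54.9 ± 1.60 to 117 ± 55.6 TMM-scaled CPM (log2 fold change 0.99 ± 0.25, adjusted p = 0.0173 by limma) and in endothelial cells from 0.858 ± 0.646 to 7.86 ± 5.05 (2.10 ± 0.50, adjusted p = 0.0414 by limma). The endothelial sham level rests on very few UMIs, since a sham mouse had 1770466 to 3002068 endothelial UMIs in all. The 13 myeloid markers, all with UMIs in endothelial nuclei, summed there to 234 CPM (185 to 294) in sham and 615 CPM (454 to 828) in I/R mice, and their part in the endothelial rise was not tested. Pde8b, a cAMP enzyme of high affinity, fell in myeloid cells from 29.5 ± 6.35 to 11.5 ± 4.29 CPM (-1.32 ± 0.29). Cardiomyocyte markers were lower in the same nuclei and their clusters differed between the groups, as given above, and the part of either was not tested. Against sham, Pde8a was higher in myeloid cells of SBP mice, at 175 ± 20.1 CPM beside 81.9 ± 7.14 CPM in sham mice (1.08 ± 0.17, adjusted p = 0.00153 by limma). Its level in I/R mice is not given here, so the rise is not read as particular to SBP. For I/R against sham, 2 other phosphodiesterases were called higher in myeloid cells, Pde1b among them. The Gpnmb cluster had 17, 52 and 20 nuclei in sham and 314, 1125 and 325 in SBP mice, and its part was not tested. Between SBP and I/R mice limma called 0.0% of myeloid genes.

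Receptors that set cAMP were called in both directions. In fibroblasts Pth1r (1.31 ± 0.38) and Adcyap1r1 (0.88 ± 0.22), both receptors that raise cAMP, rose and Ptgir, the prostacyclin receptor, fell from 21.6 ± 2.03 to 5.94 ± 2.06 CPM (-1.75 ± 0.28). In myeloid cells Ptger2, the prostaglandin E2 receptor EP2, rose from 8.76 ± 4.10 to 43.5 ± 10.7 CPM (2.24 ± 0.32) and Adora2b, an adenosine receptor, from 4.31 ± 2.01 to 19.4 ± 15.7 (1.74 ± 0.46). The sham level of Adora2b rests on few UMIs, since a sham mouse had 600186 to 1393074 myeloid UMIs in all. Clusters of both cell types differed between the groups, as given above, and their part in these changes was not tested. Myeloid Adrb1, the beta1-adrenergic receptor known best from cardiomyocytes, fell from 55.2 ± 13.0 to 12.3 ± 5.22 CPM (-2.12 ± 0.41), and the cardiomyocyte markers were lower beside it as given above.

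Of cyclases and effectors, fibroblast Gucy1a2, a subunit of the nitric oxide receptor that makes cGMP, fell from 443 ± 19.9 to 194 ± 80.9 CPM (-1.26 ± 0.22). The transcription factor gene Creb3l1 rose in fibroblasts from 21.7 ± 4.36 to 82.4 ± 19.2 (1.87 ± 0.25). Fibroblast clusters differed between the groups, as given above, and their part in these changes was not tested. Bves, a Popeye protein that binds cAMP and is abundant in cardiomyocytes, fell in myeloid cells from 14.6 ± 6.19 to 3.83 ± 1.49 CPM, again beside lower cardiomyocyte markers (6333 and 2324 CPM in sham and I/R mice).

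The gene with the level most like each member's, over 36 sums of 4 types in 9 mice that share libraries, was given by Pearson's r of log2(CPM + 1) among genes of at least 10 CPM. Pde4d was most like Mlip (r = 0.969) and Pde4dip, named as an interactor of Pde4d (0.966). Pde1c was most like the potassium channel gene Kcnh2 (0.967), Pde3a like Gata6 (0.965), Pde1a like Pcdh9 (0.985) and Pde10a like Sulf1 (0.972). Pde3b was most like Rab3il1 (0.977), Pde5a like Pkd2 (0.977), Pde2a like Pkp4 (0.952) and Pde4b like Cntn5 (0.948). Pde7b had no close match, with Zfhx2 at 0.835. These correlations are between cell types for the most part and are given as a description.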

How the data were processed

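sNuc-seq libraries of 9 mouse hearts (3 sham, 3 I/R, 3 SBP) were used. The authors deposited natural log values of a Seurat normalization, ln(1 + 10000 × UMIs / total) per nucleus, after alignment to GRCm38 (the submitters' processing notes name Cell Ranger 4.0, STAR and Seurat 3.2.0), and after evening depth between samples, keeping nuclei of over 200 genes and under 10% mitochondrial UMIs and removing mitochondrial genes. That evening of depth and the removal limit what the UMI totals say of the libraries. The files hold fewer nuclei than the study states; the rest were not analysed here. UMIs were recovered by dividing each nucleus's linear values by its smallest value, and at least 99.99936% came out whole within 0.1 UMI.

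Nuclei were clustered with Scanpy 1.11.5 (2000 variable genes without the cyclic nucleotide genes, 30 components, resolution 0.3) and named from markers detected in over 10% of nuclei. Scrublet marked 0.171% as doublets, too few to count as a working call; these were removed, and removing the top-scoring 4.409% was an alternative. UMIs were summed per mouse and type and tested with limma 3.58.1 (R 4.3.3; trend and robust) on log2(CPM + 1), adjusted over all genes, as the unit is not a count. Genes were kept with 15 UMIs in all and, in 3 samples, a CPM worth 10 UMIs of the median library. The test was checked on simulated data. Replicate numbers did not pair the mice (correlations of same-number deviations, -0.317 to 0.298), so no block was used. Alternatives changed samples, block, scaling, pseudocount, filter, averaging, doublets, typing and left out each mouse. All 10 members were named, up to 3 called genes each way per list set, type and contrast, and the 3 most alike genes per member, of which the first or second is given. An item that the naming rule picked is not reported here. Members and lists were chosen with earlier results of these data known. p-values rest on 3 mice per group, and depth (1540 to 2031 UMIs per nucleus) limits low genes such as Pde2a.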

Additional observations from a re-analysis of the deposited data

Results flagged for a closer look

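For Pde3a the change with I/R was tested between cell types. The test of the difference, myeloid nuclei against the mean of the other 3 types, gave -0.97 ± 0.23 on the log2 scale (adjusted p = 0.0353 by limma). The call was lost in 11 of 20 alternatives, among them leaving out any 1 sham or I/R mouse, and within a type none of the I/R changes below passed (adjusted p = 0.254, 0.0636 and 0.0656 by limma). In I/R mice Pde3a was higher than in every sham mouse in cardiomyocytes (0.54) and fibroblasts (0.55) and lower than in every sham mouse in myeloid nuclei (-0.56). In SBP mice the same held, with 0.72 in cardiomyocytes, 0.54 in fibroblasts and -0.70 in myeloid nuclei. Of all genes, 16.3%, 26.9% and 35.2% had no overlap between I/R and sham mice in these types, in that order. Between SBP and sham mice the shares were 23.2%, 27.0% and 33.9%. For SBP against sham the difference between types was not tested, and the I/R and SBP values of Pde3a share their sham mice. The sums of cardiomyocyte markers in myeloid nuclei, with means of 6333 CPM in sham mice, 2324 in I/R mice and 2008 in SBP mice, moved with it, and their part was not tested.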

How the results depend on the processing

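No member was called between SBP and I/R under any alternative run, and none for the difference between types in cardiomyocytes, endothelial cells or fibroblasts. The other counts of called members moved. Cell types from marker scores, which gave 76.7% of nuclei the same type, called 1 member in cardiomyocytes for I/R and 1 for SBP against sham (0 and 0 before), 4 and 2 in fibroblasts, and 1 for SBP against sham in myeloid cells. A fit of only the 6 samples compared called 2 in cardiomyocytes and 2 in endothelial cells for SBP against sham and 1 for I/R and 3 for SBP against sham in fibroblasts, and 3 for SBP against sham in myeloid cells. The largest cluster alone called 2 for SBP against sham in endothelial cells, 1 (Pde3a) for I/R and 0 for SBP in fibroblasts, and 0 and 0 in myeloid cells, where sham 1 drops out with 17 nuclei. The Cd163 cluster, added after seeing the data, called 0 for I/R and 1 for SBP. Library-size CPM called 4 in fibroblasts and 2 in myeloid cells for I/R, and the mean over nuclei 1 for I/R and 0 for SBP in fibroblasts and 2 and 1 in myeloid cells. With no filter on low genes 1 was called for SBP in myeloid cells. The myeloid difference of Pde3a was lost (0 called) with no filter, with the mean over nuclei, with marker scores and in the largest cluster. Leaving out each mouse in turn gave 0 to 3 called for I/R and 0 to 1 for SBP against sham in cardiomyocytes, 0 to 1 for both in endothelial cells, 1 to 4 and 0 to 3 in fibroblasts, 0 to 2 and 0 to 3 in myeloid cells, and 0 to 2 for the myeloid difference. The replicate block called 2 members for I/R in myeloid cells and 2 for the myeloid difference and changed no other count; by the correlations of deviations the numbers did not pair the mice, and 2, 4, 3 and 3 of 9 mice in cardiomyocytes, endothelial, fibroblast and myeloid cells correlated best with a mouse of their own number. No member called with the main settings changed sign under any alternative. Myeloid Pde3b for SBP against sham, called only under alternatives, turned sign in the largest cluster. The share of all genes called under each alternative is not set beside these counts, so they are not read as a result about the members. The cause of the moves in these counts was not tested.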
